A study of Mus musculus with 36 samples.

Results

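The 10 genes Gpam, Gpat4, Agpat2, Lpin1, Lpin2, Lpin3, Mogat1, Mogat2, Dgat1 and Dgat2 encode enzymes that assemble triglyceride, the storage form of fat. They were taken by name, with earlier results of these data known, out of the 17536 genes found in either of the 2 deposited count tables. The liver table held 9 of them. The table for eWAT, the white fat pad of the male abdomen that lies on the epididymis, held all 10. Mogat2 was not in the liver table, which kept genes above 0.5 CPM in at least 6 libraries, so the 9 liver members had already passed a filter on low values.

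All mice were wild-type C57BL/6 males of the F0 generation, 24 weeks old, and had eaten chow until 6 weeks of age. The LF group then ate low-fat diet for 18 weeks. The HF group was given high-fat diet for 18 weeks; the treatment text abbreviates that arm differently from the diet label. For HFLF, 9 weeks of high-fat feeding were followed by 9 weeks on low-fat diet. Each diet had 6 liver and 6 eWAT libraries, 36 in all. The labels do not say that every library came from a separate mouse, so the p-values below measure the spread between libraries, part of which may be technical. HF against LF asks what the high-fat diet changed. HFLF against HF sets 9 weeks of high-fat feeding plus 9 weeks of low-fat diet against 18 weeks of high-fat feeding. No group was sampled after 9 weeks of high-fat feeding, so the diet return and the shorter high-fat feeding cannot be told apart. HFLF against LF asks what difference was present at 24 weeks of age.

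Triglyceride is built at the endoplasmic reticulum by adding fatty acids, as acyl-CoA, to a glycerol backbone. In the glycerol phosphate route a GPAT enzyme adds the first chain to glycerol 3-phosphate, an AGPAT enzyme adds the second to give phosphatidate, a lipin removes the phosphate to give diacylglycerol, and a DGAT enzyme adds the last chain. A side entry, run by the MGAT enzymes, makes diacylglycerol directly from monoacylglycerol. Fat cells use these steps to store fat, and liver uses them to package fat for secretion and, in fatty liver, to fill lipid droplets.

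Total counts per library ran from 11662551 to 23295485 in liver and from 8941798 to 31186477 in eWAT. Values are CPM, that is counts relative to library size, scaled by TMM factors within a tissue. The tissue labels held: Alb, the main hepatocyte secretory gene, stood at 50386 to 82283 CPM in liver, and Adipoq, which encodes adiponectin, at 789.8 to 4019 CPM in eWAT. Liver LF libraries 1 to 4 stood apart. Their summed level of 8 acute-phase and stress genes was 6752 to 9895 CPM, against 98.95 to 690.5 CPM in the other 14 liver libraries. In those 4 the 6 clock genes, which follow time of day, summed to 259.6 to 341.3 CPM. The clock sums were 400.9 and 541.9 CPM in LF libraries 5 and 6. HF stood at 407.2 to 560.7 CPM and HFLF at 283.9 to 516.5 CPM. The clock gene Dbp held 2.558 and 5.155 CPM in LF libraries 1 and 2 and 131.4 to 182.1 CPM in HF. The part of time of day in the liver results was not tested. Earlier work on these data had set apart 6 eWAT libraries: LF numbers 3, 4 and 5, HF number 1, and HFLF numbers 4 and 6. The 2 measured epididymal markers summed to 218.4 CPM in LF library 3 and to 0.8827 to 14.65 CPM in the other 5 of that set, and to at most 0.9957 CPM in the remaining 12. Alb stood highest in LF library 5, at 666 CPM. Where leaving out one of these sets changed a call on a member, the value without it stands beside the result, and the neighbouring gene lists are given without the sets as a whole further on.

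Dgat2 was the member with the most transcripts in both tissues. Per kb of exon, a scale that allows genes to be compared, Dgat2 stood at 229 ± 56.9 CPM per kb in LF liver (mean ± SD, n = 6) and 988 ± 366 CPM per kb in LF eWAT. Agpat2 followed in both, at 81.0 ± 12.5 and 268 ± 72.4 CPM per kb. The Dgat2 and Agpat2 libraries did not overlap in either tissue on LF.

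The lower part of the order differed between the tissues. In LF liver the means ran Lpin1, Lpin2, Gpam, Gpat4, Dgat1, Lpin3 and Mogat1. Lpin1 (70.1 ± 32.8 CPM per kb), Lpin2 (38.2 ± 14.6), Gpam (35.5 ± 6.78) and Gpat4 (33.3 ± 7.13) each overlapped its neighbour in the order, and Lpin1 also overlapped Agpat2. Dgat1 (9.25 ± 1.08), Lpin3 (1.70 ± 0.277) and Mogat1 (0.156 ± 0.201) were each apart from the next. In LF eWAT the means ran Dgat1 (113 ± 25.9 CPM per kb), Lpin1 (64.0 ± 11.97), Gpam (42.2 ± 8.19), Gpat4 (35.2 ± 7.32), Mogat1 (33.3 ± 10.5), Mogat2 (7.87 ± 6.53), Lpin3 (6.63 ± 1.07) and Lpin2 (1.66 ± 0.828). Neighbours from Dgat1 to Mogat1 overlapped, as did Mogat2 and Lpin3. The tables were scaled separately, so levels set across tissues are a description. On that basis Mogat1, Dgat1, Dgat2, Agpat2 and Lpin3 stood higher in eWAT and Lpin2 higher in liver, with no overlap on LF. Dividing by the longest transcript in place of all exons kept Dgat2 highest on LF (312 in liver, 1346 CPM per kb in eWAT) but put liver Lpin1 (121.4) above Agpat2 (115.9), and raised liver Lpin2 to 82.8, Lpin1 in eWAT to 110.8 and Dgat1 in eWAT to 182.6 CPM per kb.

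**Figure D1:**
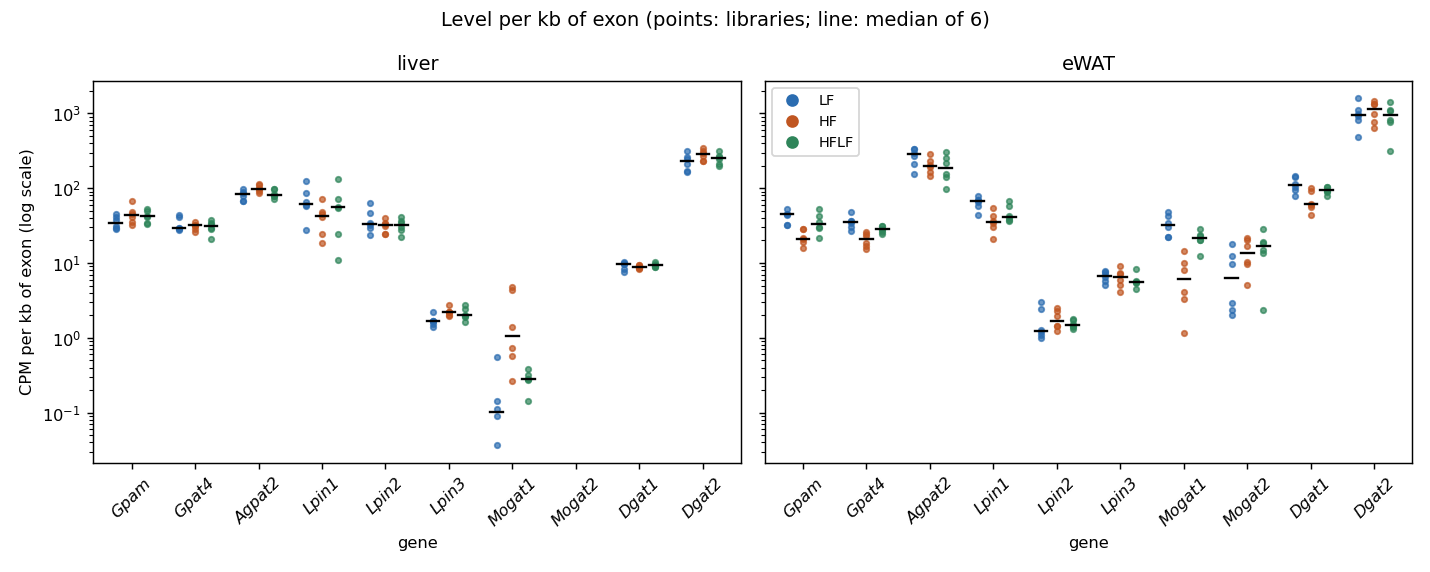
Level of each member in CPM per kb of merged exon (log axis) in liver (left panel) and eWAT (right panel). Points are libraries coloured by diet, lines are medians of 6, and the liver LF library without a Mogat1 count is not drawn. Dgat2 is highest in both tissues, at means of 229 (LF liver) and 988 CPM per kb (LF eWAT), while liver Mogat1 lies lowest at 0.156 CPM per kb on LF.

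In liver the high-fat diet changed 3 of the 9 measured members, all upwards: Mogat1, Agpat2 and Lpin3 (edgeR quasi-likelihood test, adjusted p of 0.05 over all genes). The same test called 34.8% of all 14052 liver genes, and 16.3% as higher. The share of members called in either direction was thus close to that of all genes, while all 3 calls were higher. Of the 3, Mogat1 entered the liver table mainly through its HF libraries, which favoured a rise. The median log2 fold change was 0.30 over the 9 members and 0.00 over all genes. The HF and LF libraries overlapped for each member.

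Mogat1 (monoacylglycerol acyltransferase 1, ENSMUSG00000012187, chromosome 1, 78510991 to 78538173, GRCm38) had the largest change of any member. Its LF libraries 1 to 6 held 0, 0.138, 0.176, 0.0567, 0.861 and 0.223 CPM. The HF libraries held 6.75, 2.17, 1.13, 7.42, 0.408 and 0.894 CPM, and the HFLF libraries 0.433, 0.604, 0.494, 0.225, 0.441 and 0.422 CPM. HF libraries 1 and 4 were far above the rest, HF libraries 2, 3 and 6 were above every LF library, and HF library 5 lay inside the LF range. These are few reads: 0 to 16 counts per LF library, 5 to 148 per HF library and 3 to 12 per HFLF library. Mogat1 had a 12.9-fold higher level in HF (log2 fold change 3.69 ± 0.73, SE, adjusted p = 0.00145, edgeR). Above 0.5 CPM on the TMM scale were 5 HF libraries, 1 LF library and 1 HFLF library. HFLF library 3, at 0.494 CPM, is also above it without its TMM factor of 1.049. The gene thus entered the liver table mainly through the group in which it was high. That entry favoured a difference, and the fold change describes these libraries. It was 7.09-fold lower in HFLF than in HF (-2.83 ± 0.69, adjusted p = 0.0267), and its HFLF level against LF did not pass (0.86 ± 0.87, adjusted p = 0.498).

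The liver libraries high in Mogat1 were also high in genes of fat storage, chosen here after their values were seen. Pparg, a nuclear receptor that drives fat storage genes, reached 25.8 and 18.6 CPM in HF libraries 1 and 4, above its 5.88 to 13.1 CPM in the other 4. Cidec, a lipid droplet protein, reached 142.5 and 76.6 CPM there and at 5.63 to 28.4 CPM in the other 4. Pparg rose in HF (1.57 ± 0.34, adjusted p = 0.00283) and its HFLF level against HF did not pass (-1.004 ± 0.34, adjusted p = 0.0883). Of the 7 adipocyte markers, Adipoq, Plin1 and Retn were not in the liver table. The other 4, Cidec among them, summed to 23.9 to 43.0 CPM in LF, 42.6 to 230.1 CPM in HF and 38.5 to 50.3 CPM in HFLF.

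Other marker lists were high in the same HF libraries. The 2 measured genes of the enterocyte list, Fabp2 and Apoa4, summed to 2256 and 1523 CPM in HF libraries 1 and 4. Their sum was 1403 CPM in HF library 3 and 333.7 to 590.9 CPM in the other HF libraries. It was 255.4 to 480.1 CPM in LF and 392.8 to 969.2 CPM in HFLF. The third gene, Vil1, was not in the liver table. As the sum was at least 255.4 CPM in every liver library, it does not by itself identify gut cells. Of the 5 progenitor and fibroblast markers 4 were measured, and they summed to 199.7 and 158 CPM in HF libraries 1 and 4, 46.64 to 70.02 CPM in the other HF libraries, 28.66 to 115.7 CPM in LF and 39.83 to 103.4 CPM in HFLF. The part of these lists in the Mogat1 result was not tested.

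Among liver genes with a mean of at least 1 CPM, Raet1e (r = 0.943) and Raet1d (r = 0.931), which encode ligands of an immune receptor and overlap each other on one strand, were among the 3 whose log2 level ran most like that of Mogat1 over the 18 libraries. The libraries share their diet groups, so r describes the pattern and carries no p.

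Agpat2 (1-acylglycerol-3-phosphate acyltransferase 2, ENSMUSG00000026922, chromosome 2, 26593057 to 26604417), whose human counterpart is lost in a congenital lipodystrophy, rose slightly. Its LF libraries 1 to 6 held 141.9, 143.2, 208.1, 188.3, 186.5 and 167.3 CPM, and its HF libraries 209.5, 193.3, 234.9, 243.2, 212.4 and 183.6 CPM. LF libraries 1 and 2 were the lowest of all, and the groups overlapped. The log2 fold change was 0.30 ± 0.11 (1.23-fold, adjusted p = 0.0332), and limma voom did not call it (0.28, adjusted p = 0.0504). HFLF libraries stood at 152.9 to 210.2 CPM and passed against neither LF (0.07 ± 0.11) nor HF (-0.24 ± 0.11, adjusted p = 0.193). Egfl7, on the other strand, shares 64 of the 2130 exon bases, and stood at 24.8 to 35.6 CPM in all diets.

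Lpin3 (ENSMUSG00000027412, chromosome 2, 160880670 to 160906002), the least abundant lipin of liver, rose as well. Its LF libraries 1 to 6 held 5.22, 6.26, 8.20, 6.24, 6.19 and 5.63 CPM and its HF libraries 10.2, 8.26, 8.26, 8.12, 7.26 and 7.50 CPM. HF libraries 1 to 3 lay above every LF library, and HF libraries 4 to 6 below LF library 3, the highest of its group. The log2 fold change was 0.40 ± 0.13 (1.32-fold, adjusted p = 0.0275). Its HFLF libraries, at 5.93 to 10.3 CPM, did not pass against LF (0.32 ± 0.13, adjusted p = 0.0923) or against HF (-0.08 ± 0.13).

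Without LF libraries 1 to 4, which leaves 2 LF libraries, none of the 9 members was called in HF against LF (Mogat1 2.55, adjusted p = 0.189; Agpat2 0.27, 0.268; Lpin3 0.49, 0.162), while the share of all genes called fell to 2.11%. The folds of Agpat2 and Lpin3 stayed near those with all libraries, and the absence of those 4 libraries and the smaller group cannot be told apart. Agpat2 was also lost without LF library 1 or 2 or HF library 3 or 4 (adjusted p = 0.0706 to 0.0842), and Lpin3 without LF library 1 or HF library 1 (0.062 and 0.0722). Mogat1 kept its HF against LF call without any single library.

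**Figure D2:**
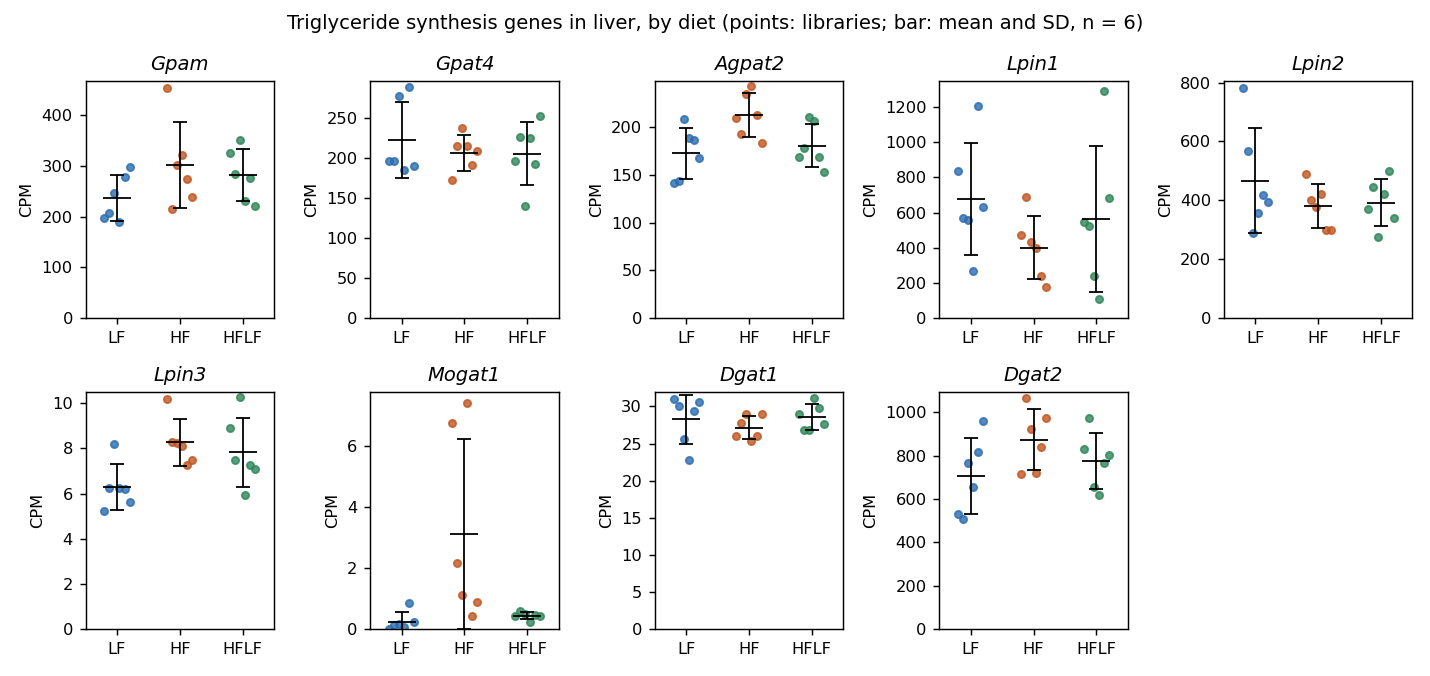
CPM of the 9 members measured in liver, one panel per gene, by diet on the horizontal axis. Points are libraries and the black bars give mean and SD (n = 6). In the Mogat1 panel, HF libraries 1 and 4 stand at 6.75 and 7.42 CPM above all others, while in most other panels the diets overlap widely.

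The other 6 liver members did not pass in any diet comparison. Gpam, the mitochondrial outer membrane GPAT (ENSMUSG00000024978, chromosome 19, 55067268 to 55127238), stood at 236.4 ± 45.2 CPM in LF, 301.2 ± 84.4 in HF and 281.8 ± 51.2 in HFLF. Its HF library 1, also one of the 2 highest in Mogat1, held 454 CPM, the most of any liver library. Gpat4, the GPAT of the endoplasmic reticulum (ENSMUSG00000031545, chromosome 8, 23171265 to 23208346), stood at 222.8 ± 47.6, 207.2 ± 22.5 and 206.1 ± 39.0 CPM.

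Lpin1 (ENSMUSG00000020593, chromosome 12, 16535669 to 16610966), a phosphatidate phosphatase that responds to fasting in liver, ranged most widely in CPM among libraries of one diet, of these 6 members. It ran from 266.4 to 1207 CPM in LF, from 178.5 to 688.2 CPM in HF and from 107.4 to 1289 CPM in HFLF. Its HF against LF estimate of -0.75 ± 0.48 on the log2 scale did not pass (adjusted p = 0.235). Lpin2 (ENSMUSG00000024052, chromosome 17, 71182560 to 71249817) stood at 467.1 ± 178.8, 381.7 ± 74.0 and 391.8 ± 80.4 CPM. Its highest library was LF library 1 at 779.9 CPM.

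The pair that adds the last chain moved little in liver. Dgat1 (ENSMUSG00000022555, chromosome 15, 76502015 to 76511953) stood at 28.3 ± 3.29 CPM in LF, 27.2 ± 1.61 in HF and 28.6 ± 1.78 in HFLF. The 95% interval of its HF against LF difference ran from -0.203 to 0.087 on the log2 scale. Dgat2 (ENSMUSG00000030747, chromosome 7, 99153658 to 99182719) stood at 705.8 ± 175.5, 872.8 ± 141.1 and 774.2 ± 128.6 CPM. Its LF libraries 1 and 2 were the lowest, at 529.5 and 505.7 CPM. HF against LF gave 0.31 ± 0.15 (adjusted p = 0.129), but 0.42 without LF library 6 (adjusted p = 0.0349) and -0.02 without LF libraries 1 to 4.

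After the return to low-fat diet, Mogat1 was the 1 liver member of 9 that differed from HF, downwards. Of all genes 5.23% did, and 3.05% downwards. Liver Mogat1 entered the table mainly through the HF libraries, which favoured a lower HFLF level, so its call describes these libraries. That call was lost without HF library 1 or 4 or HFLF library 3, 4, 5 or 6 (adjusted p = 0.0518 to 0.0716, log2 fold change -2.86 to -2.38). Against LF, edgeR called 0 of 9, where it called 22.6% of all genes. Without LF libraries 1 to 4, which leaves a smaller LF group, that share of all genes was 0.185%. With all libraries 1 member, Lpin3, had an unadjusted p under 0.05 (36.4% of all genes), and DESeq2 and limma voom each called 0. Lpin3 was called without LF library 3 or HFLF library 4 (adjusted p = 0.034 and 0.0408).

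In eWAT the high-fat diet lowered 5 of the 10 members and raised none. Mogat1, Gpam, Gpat4, Lpin1 and Dgat1 fell. The test called 40.8% of all 16690 eWAT genes, 20.2% as lower. The median log2 fold change was -0.55 over the 10 members and -0.02 over all genes. HF and LF libraries did not overlap for 3 of them, Mogat1, Gpat4 and Gpam, as for 15.8% of all eWAT genes. Leaving out any single library left 5 members called.

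Mogat1 fell most. Its LF libraries 1 to 6 held 65.8, 74.7, 54.1, 34.2, 34.8 and 47.7 CPM, and its HF libraries 6.43, 12.7, 1.81, 5.14, 22.5 and 15.7 CPM. The HFLF libraries held 35.7, 19.1, 31.8, 36.9, 44.7 and 31.3 CPM. Every HF library lay below every LF library, HF library 3 lowest of all, and of the HFLF libraries number 2 alone lay inside the HF range. Mogat1 was 4.85-fold lower in HF (-2.28 ± 0.42, adjusted p = 0.000551) and 3.11-fold higher in HFLF than in HF (1.64 ± 0.42, adjusted p = 0.00963). HFLF against LF did not pass (-0.64 ± 0.40, adjusted p = 0.406).

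A gene on the other strand, BC035947, shares 200 of the 1558 Mogat1 exon bases (12.8%). It stood at 12.3 to 30.3 CPM in LF, 0.164 to 5.94 CPM in HF and 6.67 to 14.5 CPM in HFLF. It fell in HF (-2.90 ± 0.51, adjusted p = 0.000361), and its HF libraries had the order 5, 6, 2, 1, 4, 3, that of Mogat1. Since no source used here names the strand setting of the counting, reads in the shared bases cannot be told apart.

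Gpam and Gpat4, which add the first chain, fell to similar degrees. Gpam stood at 214.5 to 353.8 CPM in LF (median 297.7), 106.2 to 192.1 CPM in HF (median 141.1) and 145.5 to 350.6 CPM in HFLF. It fell 1.89-fold in HF (-0.91 ± 0.20, adjusted p = 0.00175) and was higher in HFLF than in HF (0.66 ± 0.20, adjusted p = 0.0223). Gpat4 stood at 179.6 to 321.5 CPM in LF, 101.3 to 174.1 CPM in HF and 163.4 to 209.9 CPM in HFLF. It fell 1.71-fold in HF (-0.77 ± 0.14, adjusted p = 0.000543) and was higher in HFLF than in HF (0.45 ± 0.14, adjusted p = 0.0285).

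Lpin1, the main lipin of fat, held 634.5, 760.7, 672.6, 554.0, 424.9 and 661.9 CPM in LF libraries 1 to 6 and 332.7, 354.7, 204.1, 290.8, 520.0 and 416.2 CPM in HF. HF library 5 lay among the LF libraries and the other 5 below all of them. Lpin1 fell 1.75-fold (-0.81 ± 0.21, adjusted p = 0.00549). HFLF libraries, at 354.6 to 644.3 CPM, did not pass against HF (0.36 ± 0.21, adjusted p = 0.209) or LF (-0.44 ± 0.21, adjusted p = 0.270).

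Dgat1 held 345.8, 443.0, 427.9, 292.3, 237.9 and 321.7 CPM in LF and 171.7, 187.2, 134.1, 183.7, 283.8 and 305.8 CPM in HF. HF libraries 5 and 6 overlapped the LF range and the other 4 lay below it. It fell 1.63-fold (-0.71 ± 0.19, adjusted p = 0.00666). In HFLF it stood at 238.8 to 319.7 CPM, and the comparison with HF did not pass (0.44 ± 0.19, adjusted p = 0.0936), though it did without HF library 5 or 6 (0.0373 and 0.0249) and with limma voom (0.43, adjusted p = 0.0429).

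The other 5 members were not called in eWAT. Dgat2, the most abundant, stood at 1473 to 4896 CPM in LF, 1949.5 to 4468 CPM in HF and 956.5 to 4396 CPM in HFLF, with an HF against LF estimate of 0.13 ± 0.32. Agpat2 stood at 328.7 to 720.6, 314.9 to 618.3 and 205.8 to 658.5 CPM (-0.38 ± 0.26, adjusted p = 0.249). Mogat2 (ENSMUSG00000052396, chromosome 7, 99219084 to 99238619), best known from the gut, stood at 3.71 to 32.8 CPM in LF and 9.43 to 40.0 CPM in HF (0.82 ± 0.57, adjusted p = 0.267).

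LF libraries 2, 3 and 4 and HFLF library 4 held the least Mogat2, 3.71 to 5.36 CPM, against 9.43 CPM or more in each of the other 14. LF library 4 and HFLF library 4 were also the lowest in Dgat2 and HFLF library 4 the lowest in Agpat2. Lpin2 stood at 12.04 to 36.3 CPM and Lpin3 at 15.3 to 33.5 CPM over all eWAT libraries, with diet estimates between -0.22 and 0.12 on the log2 scale. Without the eWAT set named above, Lpin2 was called higher in HF (0.67, adjusted p = 0.0448), making 6 members called of 10.

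**Figure D3:**
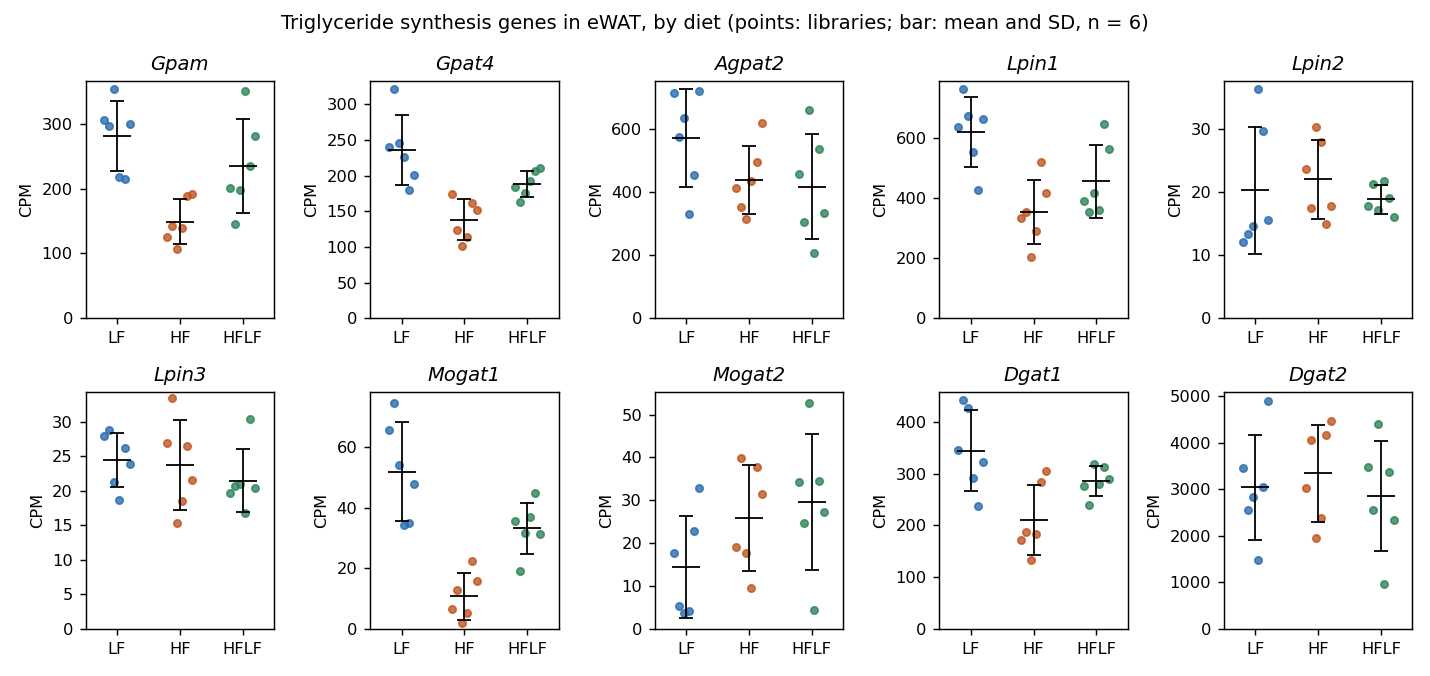
CPM of the 10 members in eWAT, one panel per gene, by diet on the horizontal axis; points are libraries, bars mean and SD (n = 6). HF points lie below all LF points for Gpam, Gpat4 and Mogat1 (HF at most 22.5, LF at least 34.2 CPM in Mogat1), while those of Dgat2 and Agpat2 overlap.

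HFLF differed from HF in 3 of 10 eWAT members, Mogat1, Gpam and Gpat4, all higher, where the test called 25.4% of all genes and 10.7% as higher. Gpam was lost without HF library 3 or HFLF library 4 or 6 (adjusted p = 0.0527 to 0.059, 0.51 to 0.60), and Gpat4 without HF library 2, 3 or 4 or HFLF library 5 or 6 (0.0551 to 0.0697, 0.38 to 0.42). Without the eWAT set, none of the 3 was called (Mogat1 1.51, adjusted p = 0.0807; Gpam 0.34, 0.20; Gpat4 0.48, 0.0757), and the share of all genes called was 8.33%. HFLF against LF gave 0 of 10 by edgeR, where it called 0.563% of all genes. Gpat4 and Lpin1 had an unadjusted p under 0.05 there (18.1% of all genes), and DESeq2 and limma voom each called 0.

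Sums of cell type markers in eWAT differed between the diets as well. The 7 adipocyte markers, none at 0, summed to 27263 to 50732 CPM in LF, 10049 to 28976 CPM in HF and 24896 to 36574 CPM in HFLF. The 8 macrophage markers summed to 485 to 878.4 CPM in LF, 1254 to 10570 CPM in HF and 861.1 to 2925 CPM in HFLF. The 5 progenitor and fibroblast markers summed to 1581 to 2586, 2979 to 11193 and 1742 to 2380.3 CPM. The 6 hepatocyte markers summed to 2972 to 7749 CPM in LF, 31.61 to 1325 CPM in HF and 895.8 to 3295 CPM in HFLF. Of these, Alb stood at only 27.55 to 666 CPM in LF, 2.55 to 99.29 CPM in HF and 9.728 to 135.1 CPM in HFLF. Most of each LF sum thus came from the other genes of the list, and the sums alone do not show hepatocytes in fat. The 6 clock genes, which follow time of day, summed to 410.8 to 705.4, 265 to 395.6 and 412 to 728.2 CPM. LF and HF libraries overlapped for the adipocyte list and for none of the other 4, and the part of these lists in the members' falls was not tested.

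Mogat1 had the same order over the HF libraries (5, 6, 2, 1, 4, 3) as Adipoq, and the reverse of the macrophage marker Adgre1, which ran from 65.5 CPM in library 5 to 582.7 CPM in library 3. In bulk tissue, fewer fat cells and less transcript per fat cell cannot be told apart.

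Set against the adipocyte markers, Mogat1 stood lower in HF. Per 1000 CPM of the 7 markers it stood at 1.18 to 1.54 CPM in LF, 0.180 to 0.776 CPM in HF and 0.769 to 1.22 CPM in HFLF, so LF and HF did not overlap. The other 4 members that fell overlapped on this scale. The LF and HF medians were 8.73 and 11.6 CPM for Dgat1, 7.65 and 7.86 for Gpam, 5.98 and 7.002 for Gpat4, and 15.3 and 19.1 for Lpin1. Dgat2 stood higher in HF, at 144 to 201 against 50.3 to 124 CPM.

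One marker weighs on that scale. Cfd, which encodes adipsin, made up 18.5% to 35.97% of the marker sum in LF and 1.48% to 5.23% in HF. Dividing by the other 6 markers, a choice made after seeing the data, left Mogat1 apart (LF 1.55 to 2.26, HF 0.183 to 0.819 CPM). Dgat2 then overlapped (LF 75.3 to 159, HF 152 to 207 CPM). The medians of Dgat1 (12.5 and 11.99), Gpam (10.1 and 8.14), Gpat4 (8.30 and 7.23) and Lpin1 (22.1 and 19.8) were then lower in HF, with overlapping libraries.

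**Figure D4:**
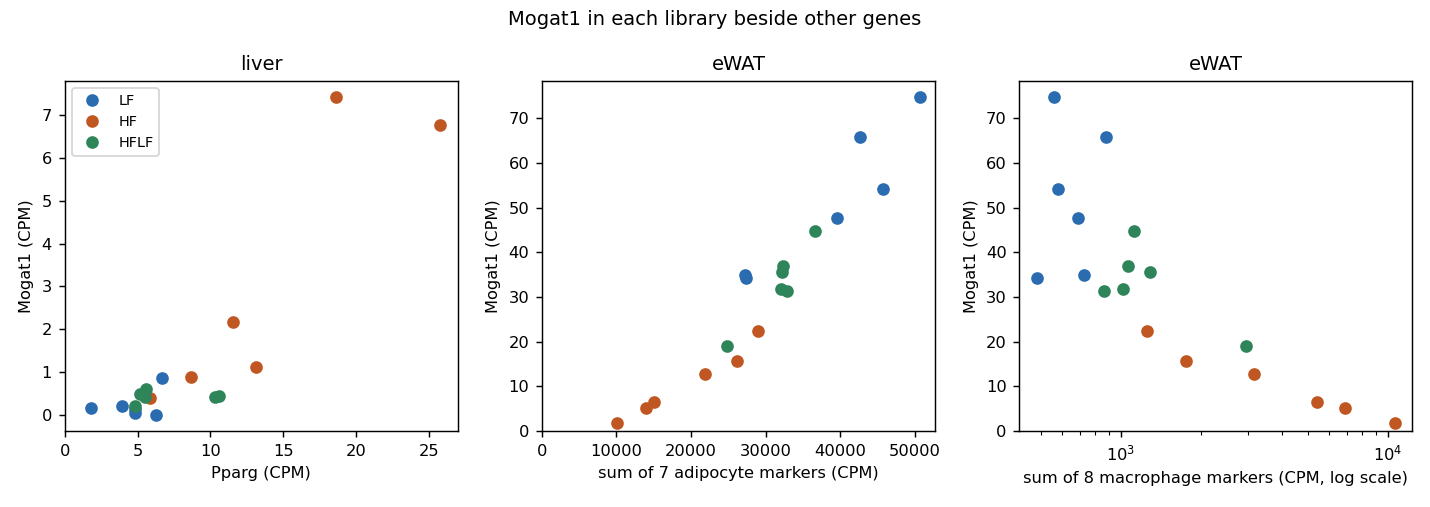
Mogat1 CPM in each library against Pparg CPM in liver (left), against the summed CPM of 7 adipocyte markers in eWAT (middle) and of 8 macrophage markers in eWAT (right, log axis), coloured by diet. In liver the 2 libraries above 6 CPM of Mogat1 are also those with the most Pparg; in eWAT the HF libraries run from 1.81 CPM with 10049 CPM of adipocyte markers to 22.5 CPM with 28976 CPM.

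The promoters of Mogat1, Gpam and Lpin1 are shown because these members fell together in eWAT and had a RefSeq window. The windows (RefSeq, GRCm38.p6) existed for 6 of the 10 members, and the stretches lie just upstream of a transcript start. Capitals mark a match, on either strand, to a motif searched for: CACGTG (E-box), AGGTCA (a nuclear receptor core) or GGGCGG (GC box). TCACNCCAC (a sterol element) was searched too. Gpam has 2 windows, 1 per start.
Mogat1, chr1:78510810-78510990, plus strand: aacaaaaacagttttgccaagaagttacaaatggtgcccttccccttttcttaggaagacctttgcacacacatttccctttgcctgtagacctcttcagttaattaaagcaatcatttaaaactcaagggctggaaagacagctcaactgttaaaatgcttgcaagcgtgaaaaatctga
Gpam, first start, chr19:55127239-55127488, minus strand: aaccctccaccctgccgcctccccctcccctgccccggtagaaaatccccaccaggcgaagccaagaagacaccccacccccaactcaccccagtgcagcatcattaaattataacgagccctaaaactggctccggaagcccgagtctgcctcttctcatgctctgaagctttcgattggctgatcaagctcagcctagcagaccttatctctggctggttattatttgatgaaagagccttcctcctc
Gpam, inner start, chr19:55099478-55099727, minus strand: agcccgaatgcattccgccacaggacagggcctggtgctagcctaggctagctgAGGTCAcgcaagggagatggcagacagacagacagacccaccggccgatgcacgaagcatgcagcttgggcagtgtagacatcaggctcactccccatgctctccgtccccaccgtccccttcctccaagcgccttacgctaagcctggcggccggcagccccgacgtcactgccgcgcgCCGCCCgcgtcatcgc
Lpin1, chr12:16610967-16611216, minus strand: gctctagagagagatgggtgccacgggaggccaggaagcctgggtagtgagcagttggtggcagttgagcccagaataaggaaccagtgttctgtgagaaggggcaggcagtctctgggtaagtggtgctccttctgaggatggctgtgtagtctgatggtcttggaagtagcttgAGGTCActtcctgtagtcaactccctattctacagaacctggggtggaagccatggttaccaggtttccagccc

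AGGTCA lay 196 bases before the inner Gpam start and 74 bases before the Lpin1 start; among all 32851 RefSeq windows of 300 bases, 16.3% hold it. The inner Gpam window also had GGGCGG, on the opposite strand, which 35.7% of windows hold. CACGTG (7.15% of windows) and TCACNCCAC (1.24%) had no match in these 4 windows, and the Mogat1 window and the first Gpam window had none of the 4 motifs. Over the whole windows, GC content was 43.7% for Mogat1, 55.7% and 68% for Gpam and 55.3% for Lpin1.

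The share of each isoform among the members of its step is given per kb of exon, as a description with no test. In eWAT, LF and HF libraries were apart for the MGAT step and overlapped for the DGAT and lipin steps. The Mogat1 share of the MGAT transcripts ran from 63.2% to 94.5% in LF and from 10.7% to 41.3% in HF, with HFLF at 41.5% to 90.9%. Mogat2 was the larger part in every HF library. Dgat2 made up 83.3% to 93.8% of the DGAT transcripts in LF eWAT and 92.8% to 95.6% in HF. In liver it made up at least 94.3% in every library.

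Among the lipins, Lpin1 held 88.2 ± 3.12% in LF, 80.9 ± 4.22% in HF and 86.2 ± 2.07% in HFLF eWAT. In liver Lpin1 and Lpin2 shared the step, at 62.0 ± 10.97% and 36.2 ± 10.7% in LF. The lipin mix of single liver libraries ranged widely: Lpin1 made up 23.6% to 75.7% in HFLF. Gpam and Gpat4 contributed about equally to their sum in both tissues, Gpam at 51.6 ± 4.91% in LF liver and 54.5 ± 4.98% in LF eWAT. Gpat3, a GPAT that is not a member, is outside that sum. It stood at 2.13 ± 1.35 CPM in LF liver and 119.6 ± 31.9 CPM in LF eWAT.

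The diet response of 5 of the 9 members measured in both tissues differed between liver and eWAT in HF against LF, where 45.6% of the 13206 shared genes did (interaction term, edgeR). The labels do not say whether liver and eWAT libraries of one number came from the same mouse, and the test treats them as separate. All 5 differences, liver minus eWAT, were positive. Mogat1 differed by 6.05 ± 0.84 on the log2 scale (adjusted p = 2.77e-06), having risen in liver and fallen in eWAT. Its liver part carries the limit given above. Mogat1 entered the liver table mainly through the HF libraries, which favoured a difference, so this value describes these libraries. Gpam differed by 1.32 ± 0.27 (adjusted p = 0.000269), Gpat4 by 0.72 ± 0.21 (0.00517), Dgat1 by 0.70 ± 0.20 (0.00531) and Agpat2 by 0.73 ± 0.28 (0.0312). Lpin1, which fell in eWAT and did not pass in liver, showed no detectable difference between the tissues (0.10 ± 0.53, adjusted p = 0.891).

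Without liver LF libraries 1 to 4, Mogat1 and Gpam were called and Dgat1 (0.60, adjusted p = 0.0928), Gpat4 (0.59, 0.0891) and Agpat2 (0.68, 0.167) were not. Agpat2 was also lost without any 1 of 7 single libraries: liver LF 1 or 2, liver HF 4, eWAT LF 1 or 6, or eWAT HF 2 or 3 (0.66 to 0.69, adjusted p = 0.0502 to 0.0598). Lpin3, at 0.50 ± 0.22 (adjusted p = 0.0654), passed without liver LF library 3 or eWAT LF library 4 or HF library 2 (0.0185 to 0.042). Without the 6 eWAT libraries set apart, a choice made after seeing the data, the same 5 members were called and Lpin2 as well, with liver below eWAT (-0.95, adjusted p = 0.0247).

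HFLF against HF differed between tissues for 2 of 9 members, where 18.0% of shared genes did: Mogat1 (-4.50 ± 0.80, adjusted p = 0.000685) and Gpam (-0.77 ± 0.27, adjusted p = 0.0441). The same limit on liver Mogat1 applies here. The Gpam difference was lost with voom and the replicate block (-0.70, adjusted p = 0.0613), without the 6 eWAT libraries set apart (-0.42, adjusted p = 0.279) and in 14 of the 24 fits that left out 1 library (-0.78 to -0.61, adjusted p = 0.0539 to 0.0961). Those libraries were liver HF 1, 3 and 4, liver HFLF 2, 4, 5 and 6, eWAT HF 1 to 4 and eWAT HFLF 4, 5 and 6. Dgat1 (-0.38 ± 0.20) passed without eWAT HF library 6 (-0.52, adjusted p = 0.0465). For HFLF against LF, edgeR called 0 of 9, where 8.56% of shared genes were called. That share was 0.00757% without liver LF libraries 1 to 4, which leaves a smaller LF group.

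**Figure D5:**
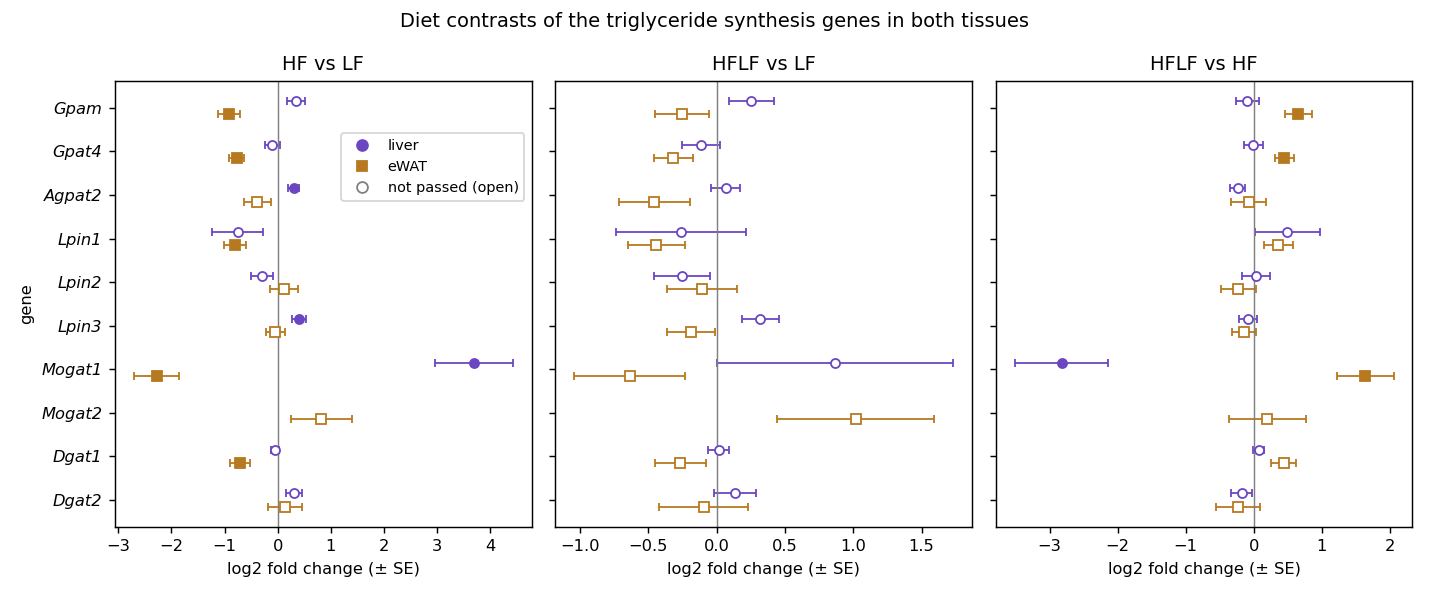
Log2 fold change (± SE, horizontal axis) of each member in the 3 diet comparisons; circles are liver, squares eWAT, filled symbols passed an adjusted p of 0.05 and open ones did not. Mogat1 lies at 3.69 in liver and -2.28 in eWAT for HF against LF, and at -2.83 and 1.64 for HFLF against HF. Liver Mogat1 entered the liver table mainly through the HF libraries, which favoured a difference.

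Counts in the lists that follow stand beside the shares of all genes called: 34.8% in liver and 40.8% in eWAT for HF against LF, 5.23% and 25.4% for HFLF against HF, and 22.6% and 0.563% for HFLF against LF.

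The steps have further isoforms, and 11 of these were measured in both tissues. In liver HF against LF, 5 of 11 rose, 1 fell and 5 did not pass (median 0.13, all genes 0.00). Gpat3, a GPAT of the endoplasmic reticulum, rose from 2.13 ± 1.35 to 9.81 ± 4.46 CPM (2.20 ± 0.37, adjusted p = 0.000555). Gpat3 was also above LF in HFLF (1.11 ± 0.38, adjusted p = 0.0426). Agpat3 (0.26 ± 0.06) and Lclat1 (0.29 ± 0.07) rose slightly. In eWAT 2 of 11 rose and 3 fell: Gpat3 fell from 119.6 ± 31.9 to 59.1 ± 28.7 CPM (-1.02 ± 0.27, adjusted p = 0.00707), with Agpat3 (-0.40 ± 0.10) and Plpp2 (-0.31 ± 0.09). In HFLF against HF 0 of 11 were called in liver and 2 fell in eWAT; in HFLF against LF 3 rose in liver and 0 were called in eWAT.

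Of the genes of glycerol 3-phosphate supply and use, Pck1 fell in HF in both tissues. The difference between tissues was not tested for this list. In liver HF against LF, 4 of 6 measured rose (Gpd1, Gpd1l, Gk and Aqp9) and Pck1 fell. Aqp9, the glycerol channel of hepatocytes, rose from 355 ± 44.9 to 513.1 ± 49.4 CPM (0.53 ± 0.10, adjusted p = 0.000858). Pck1, which drives glyceroneogenesis as well as gluconeogenesis, fell from 5071 ± 621.7 to 2886 ± 717.5 CPM (-0.81 ± 0.21, adjusted p = 0.00648). Pck1 was the 1 gene of the list lower in HFLF than in LF (-0.63 ± 0.21, adjusted p = 0.0371).

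In eWAT, Pck1 fell from 3741 ± 814.6 to 793.7 ± 753.6 CPM (-2.24 ± 0.47, adjusted p = 0.00131) and Gpd2, the mitochondrial glycerol 3-phosphate dehydrogenase, from 84.3 ± 31.7 to 30.5 ± 12.4 CPM (-1.47 ± 0.27, adjusted p = 0.000504). The other 5 of 7 measured did not pass. Both rose in HFLF against HF (1.92 ± 0.46 and 0.98 ± 0.27), as did Gpd1l (0.29 ± 0.08). The list's median in HF against LF was 0.35 in liver and -0.49 in eWAT (all genes 0.00 and -0.02).

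The acyl-CoA synthetases, which activate fatty acids for these enzymes, showed 1 rise and 2 falls among 6 measured in liver HF against LF. Acsm3, which activates medium-chain acids, rose from 50.8 ± 18.8 to 98.8 ± 7.09 CPM (0.96 ± 0.18), and Acsl4 (-1.003 ± 0.22) and Acsl3 (-0.68 ± 0.19) fell. In eWAT 2 of 5 rose and 1 fell. Acsl5 rose (0.56 ± 0.08, adjusted p = 0.000109) and Acsl4 rose (0.36 ± 0.14, adjusted p = 0.0424). Acsm3 fell from 37.5 ± 20.9 to 1.84 ± 1.71 CPM (-4.35 ± 0.69, adjusted p = 0.000173). In HFLF against HF, Acsm3 was higher (2.75 ± 0.66) and Acsl5 lower (-0.34 ± 0.08).

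Of 8 genes of lipin control and droplet assembly at the endoplasmic reticulum, 2 rose and 1 fell in HF liver. Fitm1, which helps bud droplets, rose from 16.9 ± 6.04 to 61.4 ± 23.7 CPM (1.87 ± 0.33, adjusted p = 0.000769) and fell in HFLF against HF (-1.22 ± 0.32, adjusted p = 0.0382). Bscl2, which encodes seipin, did likewise (0.30 ± 0.07 and -0.44 ± 0.07). Ctdnep1, which dephosphorylates lipins, fell (-0.21 ± 0.06). In eWAT 1 of 7 rose and 3 fell. Hilpda, an inhibitor of lipolysis, rose from 9.42 ± 2.28 to 21.7 ± 9.74 CPM (1.20 ± 0.23, adjusted p = 0.000662). Tmem159, the partner of seipin, fell from 56.1 ± 11.6 to 31.21 ± 5.95 CPM (-0.84 ± 0.13, adjusted p = 0.000148). In HFLF Tmem159 stood at 54.4 ± 4.21 CPM.

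Other enzymes draw on phosphatidate and diacylglycerol, or serve the phospholipid routes that do. Of 14, in liver HF against LF 3 rose and 1 fell, and in eWAT 2 rose and 2 fell. In liver Chpt1, which turns diacylglycerol into phosphatidylcholine, rose from 126.1 ± 29.8 to 270.7 ± 62.1 CPM (1.10 ± 0.16, adjusted p = 0.000195) and fell in HFLF against HF (-0.83 ± 0.16, adjusted p = 0.00989). Dgka, a diacylglycerol kinase, rose in HF (0.77 ± 0.11) and was also higher in HFLF than in LF (0.82 ± 0.11, adjusted p = 0.000388). In eWAT Pcyt1a (0.58 ± 0.11) and Dgkz (0.89 ± 0.18) rose in HF and fell in HFLF against HF (-0.31 ± 0.11 and -0.78 ± 0.18), and Pcyt2 fell in HF (-0.48 ± 0.11).

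Of 11 transcription factors known to act on lipid synthesis genes, 3 rose and 3 fell in HF liver, and 7 fell and 0 rose in HF eWAT. In liver Xbp1 (-1.07 ± 0.18) and Cebpb (-1.15 ± 0.31) fell and Ppara rose (0.55 ± 0.16). In eWAT Mlxipl, which encodes the glucose-sensing factor ChREBP, fell from 189.6 ± 38.2 to 77.4 ± 21.5 CPM (-1.29 ± 0.18, adjusted p = 7.06e-05) and rose in HFLF against HF (0.74 ± 0.18, adjusted p = 0.00657). Srebf1 (-0.70 ± 0.16) and Xbp1 (-0.62 ± 0.14) also fell. In HFLF against HF 6 of 11 rose in eWAT and 0 of 11 were called in liver. The median over the list in eWAT was -0.62 in HF against LF and 0.51 in HFLF against HF. These eWAT falls accompanied the lower adipocyte and higher macrophage marker sums given above, whose part in them was not tested.

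Without the libraries set apart, a choice made after seeing the data, fewer genes of these lists were called. In liver HF against LF, 27 of the 56 measured were called with all libraries and 2 without LF libraries 1 to 4: Gpat3 (2.46, adjusted p = 0.0386) and Dgka (0.80, 0.0323). Of the 27, 26 kept their direction. In liver HFLF against LF, 14 were called with all libraries and 0 without those 4 (26 of all 14052 genes called), so the values above for Gpat3, Pck1 and Dgka there rest on fits with them.

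In eWAT HF against LF, 25 of 55 were called with all libraries and 22 without the 6 set apart, 19 of them the same genes, where 5203 of all 16690 genes were called. Of the genes named above, Acsl4 (0.42, adjusted p = 0.107) and Plpp2 were lost. In HFLF against HF, 20 were called with all libraries and 9 without, 8 of them the same genes. Mlxipl, Gpd2 and Tmem159 were among the 8. Pck1, Gpd1l, Acsm3, Acsl5, Pcyt1a and Dgkz were lost there, each in the same direction.

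In eWAT the genes most like Dgat2 over the 18 libraries were Phlda3 (r = 0.946) and Mvk (0.930), which encodes mevalonate kinase. Those most like Agpat2 were Pex16 (0.910), a peroxisome assembly factor, Hsd17b12 (0.893), a reductase of fatty acid elongation, and Itpa (0.889). The libraries share their diets and cell makeup, so these values describe the pattern and carry no p.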

How the data were processed

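RNA from liver and eWAT was sequenced in 36 libraries. The submitters' processing notes name STAR and GRCm38.p6; for the STAR version, counter, annotation and strand no source used here gives a value. The deposited values are raw counts per gene, kept by the authors where CPM passed a minimum; each kept gene was above 0.5 CPM in at least 6 libraries, tested on the tables. Deposited RPKM tables were not used, because they imply different gene lengths in different libraries. Symbols and positions came from GENCODE M21, which named 14039 of 14052 liver and 16674 of 16690 eWAT genes.

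For each tissue, 1 robust quasi-likelihood model in edgeR 4.0.16 (R 4.3.3) with TMM factors covered 18 libraries and 3 diets, with Benjamini-Hochberg adjustment over all genes. Tissue differences were interaction terms over 13206 shared genes. The scripts were tested on simulated data. Alternatives used DESeq2 1.42.0, limma 3.58.1 voom, other scaling factors, a mean CPM of at least 5, only the groups compared, a replicate block, and left-out libraries. No pair of libraries was a near copy (smallest chi-square per gene 6.87). All 10 members are named; of the neighbouring lists, up to 3 genes each with the smallest p per tissue; patterns were matched by Pearson r of log2(CPM + 0.25). Members and lists were chosen with earlier results of these data known. For 2 genes matched by pattern, values are not reported here.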

Additional observations from a re-analysis of the deposited data

Results flagged for a closer look

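In 4 of 57 groups of 6 libraries tested, 1 library lay far from the others, where chance would give about 1 in 20. Liver LF library 5 held 0.861 CPM of Mogat1, above the other LF libraries at 0 to 0.223 CPM. Without it the HF against LF difference was 4.69 on the log2 scale, the highest of the fits that left out 1 library. Liver LF library 3 held 8.20 CPM of Lpin3 against 5.22 to 6.26 CPM in the others of its group. Liver HF library 1 held 10.2 CPM of Lpin3, against 7.26 to 8.26 CPM, and was also the highest HF library in Gpam, Pparg and Cidec. In eWAT, HFLF library 5 held 30.4 CPM of Lpin3 against 16.8 to 20.9 CPM in the other 5.

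The diet response differed between liver and eWAT for 5 members in HF against LF (liver minus eWAT, log2): Mogat1 by 6.05, Dgat1 by 0.70, Gpam by 1.32, Gpat4 by 0.72 and Agpat2 by 0.73. In HFLF against HF it differed by -4.50 for Mogat1 and by -0.77 for Gpam. Liver Mogat1 entered the liver table mainly through the HF libraries, which favoured both Mogat1 differences.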

How the results depend on the processing

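The number of members called changed by over 1.5 times in these cases. Liver HF against LF gave 0 in place of 3 without liver LF libraries 1 to 4. Liver HFLF against HF gave 2 with limma voom (Agpat2 -0.28, adjusted p = 0.0499), 0 with a mean CPM of at least 5 (Mogat1 was not tested there) and 0 with the replicate block (Mogat1 -2.52, adjusted p = 0.0826), in place of 1. In eWAT, HFLF against HF gave 0 in place of 3 without the 6 libraries set apart. The tissue difference in HF against LF gave 2 in place of 5 without liver LF libraries 1 to 4, and that in HFLF against HF gave 1 in place of 2 with voom with the replicate block, with a mean CPM of at least 5 and without the 6 eWAT libraries set apart (added after seeing the data); Gpam was lost in the first and last of these. Apart from the fits that leave out libraries, the causes were not tested. Leaving out 1 library at a time gave 1 to 4, 0 to 1 and 0 to 1 members in liver (HF against LF, HFLF against LF, HFLF against HF), 5 to 5, 0 to 0 and 1 to 4 in eWAT, and 4 to 6, 0 to 0 and 1 to 3 for the tissue differences.

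All reversals of direction were of changes that did not pass. Without liver LF libraries 1 to 4, HF against LF gave Dgat2 -0.022; HFLF against LF gave Mogat1 -0.284, Dgat1 -0.07, Dgat2 -0.195 and Gpam -0.029; the tissue differences gave Dgat2 -0.13 and Lpin1 -0.356 (HF against LF) and Dgat2 -0.083, Lpin1 -0.243 and Lpin2 0.085 (HFLF against LF). Liver Dgat1 in HF against LF was 0.016 with upper-quartile factors and 0.019 with voom, and voom gave Agpat2 -0.008 in liver and Lpin2 0.172 in eWAT in HFLF against LF. Without the 6 eWAT libraries, Dgat2 was -0.094 (HF against LF) and 0.017 (HFLF against HF), Lpin2 0.459 (HFLF against LF) and Agpat2 0.142 (HFLF against HF). With voom and the replicate block, the HFLF against HF tissue difference was -0.131 for Lpin1 and -0.012 for Lpin3, and without the 6 eWAT libraries -0.174 for Dgat2 and -0.06 for Lpin3.

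Leaving out 1 library reversed some as well. In liver, Dgat1 ran from -0.041 to 0.042 (HFLF against LF), and Gpam from -0.172 to 0.059, Gpat4 from -0.076 to 0.081 and Lpin2 from -0.045 to 0.122 (HFLF against HF). In eWAT, Dgat2 ran from -0.008 to 0.327 and Lpin3 from -0.169 to 0.053 (HF against LF), Dgat2 from -0.275 to 0.083 and Lpin2 from -0.224 to 0.14 (HFLF against LF), and Mogat2 from -0.071 to 0.426 and Agpat2 from -0.273 to 0.066 (HFLF against HF). Of the tissue differences, Lpin1 ran from -0.122 to 0.362 (HF against LF), Lpin1 from -0.206 to 0.474 and Lpin2 from -0.357 to 0.111 (HFLF against LF), and Dgat2 from -0.132 to 0.212, Agpat2 from -0.313 to 0.002, Lpin1 from -0.311 to 0.338 and Lpin3 from -0.074 to 0.17 (HFLF against HF).

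Whether same-numbered libraries share a mouse is not in the labels. Within a tissue a library correlated best with its own number in 0 to 2 of 6 cases (r from -0.61 to 0.571), between tissues in 5, 2 and 1 of 6 (LF, HF, HFLF); between tissues r spanned 0.0426 to 0.155 for LF, -0.0365 to 0.124 for HF and 0.013 to 0.106 for HFLF. The replicate block changed the number of members called in no other comparison by over 1.5 times. Upper-quartile factors moved the split of all genes called in liver HF against LF from 2295 higher and 2596 lower to 2952 and 1869, and in liver HFLF against LF from 1432 and 1744 to 1866 and 1158. In eWAT HFLF against HF the split moved from 1784 and 2458 to 2352 and 2033. Liver Mogat1 rests on 0 to 148 counts per library, which limits its fold change.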
